A study of Mus musculus with 24 samples.

Results

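The effect of losing Atf3 early in differentiation was examined by RNA-seq. Mouse embryonic stem cells were sampled at day 3, in 3 Atf3 knockout (KO) libraries and 3 wild-type (WT) libraries, 6 of the 24 libraries of a series that also covered days 0, 6 and 9. The KO group carries the genotype that the labels write as Atf KO, and its sample titles give the gene as Atf3. The WT group is the same cell type with no edit given. Cells of both genotypes came from a commercial stem cell source (AisenGene Bioscience) and were grown in serum with leukaemia inhibitory factor, the GSK3 inhibitor CHIR99021 and the MEK inhibitor PD0325901. At day 3 both groups carry the treatment label of differentiation. The sources used here do not give the medium that drove it, the edited part of Atf3 or the number of clones. The labels' batch entry differs between the genotypes and only repeats each group's name, so a batch and the genotype cannot be told apart from it. The series asks how Atf3 bears on mesoderm and endothelial differentiation.

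ATF3 is a basic leucine zipper transcription factor of the ATF/CREB family. It is kept low in resting cells, is induced by many kinds of stress, and binds DNA as a dimer at AP-1 and cyclic AMP response elements. When embryonic stem cells leave the naive state, most become primed epiblast, while a minor part can turn into extraembryonic endoderm, the lineage of the yolk sac. That lineage is run by GATA and SOX factors, takes up nutrients through large endocytic receptors, and lays down a basement membrane of type IV collagen and laminin.

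Atf3 (ENSMUSG00000026628) lies on the minus strand of chromosome 1, at chr1:191170296-191218039 in mm10. The 250 bases before a start annotated in RefSeq are shown because they hold a sequence of the kind that ATF and CREB factors bind. They lie at chr1:191183334-191183583 on the minus strand (RefSeq, GRCm38.p6). That window is inside the gene interval given above, so this start is not the one at the upstream end of the interval. The capitals mark TTACGTCA, which reads TGACGTAA on the other strand and differs by 1 letter from the cyclic AMP response element TGACGTCA.
Atf3: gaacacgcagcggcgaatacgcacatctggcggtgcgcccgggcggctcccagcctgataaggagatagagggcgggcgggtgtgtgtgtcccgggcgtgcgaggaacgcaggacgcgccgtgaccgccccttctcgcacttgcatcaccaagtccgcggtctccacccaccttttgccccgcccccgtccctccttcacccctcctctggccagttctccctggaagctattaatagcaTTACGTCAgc
The match begins 10 bases before the start, and this variant was searched for after the sequence had been seen. It was present on either strand in 84 of the 8366 tested genes with a promoter in the reference table (1.0%). A match is a description of the letters and not evidence that a factor binds there.

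Levels are given in FPKM, fragments per kilobase of transcript on the submitters' own scaling between libraries. Atf3 read 0.248, 0.447 and 0.611 FPKM in KO replicates 1, 2 and 3, against 5.03, 15.8 and 10.5 FPKM in WT replicates 1, 2 and 3. Every KO library was under every WT library. The KO mean of 0.436 ± 0.182 FPKM was 4.17% of the WT mean of 10.4 ± 5.36 FPKM (SD, n = 3 each). These values rest on 10, 15 and 18 recovered reads in KO cells, against 192, 358 and 234 in WT cells. The paired log2(FPKM + 1) difference was -2.88 with a standard error of 0.204, and Atf3 fell with an adjusted p of 0.00409 in limma. The exact permutation test, two-sided, gave p = 0.1, the smallest that 3 libraries against 3 can give. Its call in limma was lost with no pairing (adjusted p 0.395), with the pairs of days 3, 6 and 9 in 1 fit (adjusted p 1.0) and with no filter on low values (adjusted p 0.837), at the same log2 difference of -2.88. The targeted gene therefore followed the genotype label in all 6 libraries.

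The lines also differed in RNA from 3 Y-linked genes, at low levels. Eif2s3y, a Y-linked translation factor gene, had 0, 0 and 3 recovered reads in KO replicates 1, 2 and 3, against 63, 14 and 48 in WT replicates 1, 2 and 3. Uty, a Y-linked histone demethylase gene, had 0 reads in every KO library, against 26, 6 and 20 in WT cells, and Ddx3y, a Y-linked RNA helicase gene, had 0 reads in every KO library, against 20, 7 and 29 in WT cells. In WT cells Eif2s3y averaged 0.764 FPKM and Uty 0.135 FPKM. Of the other Y-linked genes listed, Usp9y and Zfy2 had 0 reads in all 6 libraries. Kdm5d had 1 read in KO replicate 1 and 0 in WT cells, and Zfy1 had 1 read in WT replicate 3 and 0 in KO cells. All these genes were under the filter on low values and were not tested. At days 0, 6 and 9 no KO library had more than 2 reads for Eif2s3y, Uty or Ddx3y. Each WT library had at least 5 reads for each of these 3 genes at day 0 and at least 4 at day 9. At day 6 the lowest WT library had 0 or 1. The part of this difference between the lines in the results below was not tested, and it cannot be told apart from the genotype.

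The 6 libraries held 15118548 to 17293235 recovered reads in KO cells and 12970024 to 15667560 in WT cells. Of these reads, 15.4% to 27.9% in KO cells and 15.3% to 35.2% in WT cells came from 3 genes of rRNA type (Gm23935, Gm42418 and CT010467.1), with the lowest share in replicate 1 of both genotypes. Deviations from the group mean correlated across genes at 0.702, 0.680 and 0.677 between same-numbered KO and WT libraries and at -0.440 to -0.188 between libraries of different numbers. Deviations from a mean of 3 libraries sum to 0, so positive values for the same numbers make the others negative on the whole. The negative values are therefore no separate support for the pairs. The replicate number accounted for 76.4% of the sum of squares over the tested genes, the genotype for 9.1% and the rest for 14.5%. Replicate 1 stood apart in both genotypes. Ier3, an immediate early gene, read 79.4, 2.56 and 1.75 FPKM in KO cells and 83.8, 3.52 and 2.05 FPKM in WT cells, and Fgf5, a marker of primed epiblast, read 0.748, 5.88 and 5.21 FPKM in KO cells and 0.768, 5.91 and 5.57 FPKM in WT cells. Each gene was therefore compared within pairs of the same replicate number. The labels do not say whether the replicates were separate cultures, so p-values measure only how these libraries varied, which may be technical variation.

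In this paired comparison 1 of 12353 genes passed an adjusted p of 0.05 (limma, Benjamini-Hochberg; 0.0081% of the genes tested), and that gene was Atf3. At an unadjusted p under 0.05 there were 430 genes lower in KO cells (3.48%) and 420 higher (3.4%). Lower values in KO cells in all 3 pairs were found for 2089 genes (16.9%) and higher values for 1676 (13.6%). KO and WT values did not overlap for 186 genes lower in KO cells (1.51%) and 176 higher (1.42%). The median difference over all tested genes was -0.016 on the log2 scale. Rescaled to TPM, which makes all libraries sum to the same total, it was 0.215, and 169 genes passed, 159 of them higher and 10 lower in KO cells. Rescaled to equal sums without the 3 genes of rRNA type, it was 0.0165, and 1 gene passed.

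The count of further genes that passed differed between fits. With 3 pairs a gene has 2 residual degrees of freedom, to which limma adds prior degrees of freedom learnt from all genes. That prior was 6.51 here and 89.6 when protein-coding genes alone were fitted, and 40 of 10299 protein-coding genes then passed (0.388%), 27 of them lower in KO cells (0.262%). In limma-voom on recovered reads with the same pairs the prior was infinite, which gives a gene's own spread no weight, and 30 of 12345 genes passed (0.243%), 25 of them lower (0.203%). The 2 lists of calls shared 19 genes, 63.3% of the voom list and 47.5% of the protein-coding list. With no pairing no gene passed in limma or in voom, and 80 and 48 genes had an unadjusted p under 0.05. In paired limma without replicate 1, 2 or 3, 45, 60 and 21 genes passed, with prior degrees of freedom of 7.87, 11.9 and 11.6. Each of these fits had 1 residual degree of freedom. Genes called in these alternatives are named as such below, with the adjusted p over all genes beside them.

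The extraembryonic endoderm regulator Gata4 was lower in KO cells in every pair. Gata4 (ENSMUSG00000021944, chr14:63198922-63271692), a zinc finger factor that drives this lineage, read 1.67, 1.45 and 1.65 FPKM in KO cells, against 3.28, 5.37 and 3.92 FPKM in WT cells. The groups did not overlap, and KO values were close together while WT values spread. The means were 1.59 ± 0.123 FPKM in KO cells and 4.19 ± 1.07 FPKM in WT cells (SD, n = 3 each), a log2 difference of -0.98 with a standard error of 0.143. Its adjusted p in limma was 0.116, against 2.07e-13 in voom and 8.45e-10 among protein-coding genes, and 0.0221 to 0.0496 in limma with any 1 pair left out. The fits with a pair left out used fewer libraries, with 1 residual degree of freedom and a larger prior (7.87 to 11.9, against 6.51). Sox7, an SRY-box factor of primitive and parietal endoderm, read 0.502, 0.253 and 0.377 FPKM in KO cells, against 1.08, 1.61 and 1.09 FPKM in WT cells. It rested on 13 to 31 reads per KO library and 37 to 63 per WT library, and its log2 difference was -0.71. Sox7 passed the filter on low values through the WT libraries alone, which fixed that its KO values lay under its WT values, so no test is given for it.

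Gata6 and Sox17, a GATA factor upstream of Gata4 in this lineage and an SRY-box factor of endoderm, were below the filter on low values and were not tested. Gata6 read 0.937, 0.483 and 0.550 FPKM in KO cells, against 0.866, 1.54 and 1.73 FPKM in WT cells, so that replicates 2 and 3 were lower in KO cells and replicate 1 was not. Sox17 read 0.179, 0.0942 and 0.153 FPKM in KO cells, against 0.213, 0.536 and 0.284 FPKM in WT cells. Over the 5 markers set for this lineage (Gata4, Gata6, Sox17, Sox7 and Dab2) the summed level was 4.75 to 5.69 FPKM in KO cells and 8.22 to 15.3 FPKM in WT cells. The sum includes Sox7, whose direction the filter fixed. In bulk samples, fewer cells of a type and less RNA per cell cannot be told apart.

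The endocytic machinery of this lineage showed the same sign, to different degrees. Dab2 (chr15:6299788-6440712), the adaptor that brings endocytic receptors into coated pits, read 2.28, 2.48 and 2.96 FPKM in KO cells, against 2.78, 6.25 and 6.75 FPKM in WT cells. The groups met at KO replicate 3 and WT replicate 1, and the log2 difference was -0.74 (adjusted p 0.376 in limma and 1.46e-09 in voom). Cubn, the receptor cubilin that takes up vitamin carriers and lipoproteins in the visceral yolk sac, read 1.42, 0.546 and 1.48 FPKM in KO cells, against 1.94, 1.57 and 4.57 FPKM in WT cells. Its log2 difference was -0.73 (adjusted p 0.406 in limma and 2.64e-14 in voom), without overlap but with the top KO library close to the lowest WT library. Amn, which anchors cubilin in the membrane, had a log2 difference of -0.38 (adjusted p 0.724), with 1.36, 1.78 and 1.51 FPKM in KO cells and 1.99, 3.34 and 1.79 FPKM in WT cells. Lrp2, the receptor megalin that works with cubilin, had a log2 difference of -0.10 (adjusted p 0.872), was higher in the KO library of pair 2, and had a difference of 0.15 under TPM.

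Other members of the extraembryonic endoderm list were Srgn, Amot, Rhox5, Spink1 and Rbp4. Srgn (chr10:62493833-62527451), which encodes the core protein of a secretory granule proteoglycan, read 1.48, 0.351 and 1.1 FPKM in KO cells, against 3.06, 4.27 and 5.46 FPKM in WT cells. It had the lowest log2 difference of the list, -1.43 with a standard error of 0.21 (adjusted p 0.116 in limma and 3.84e-15 in voom), and its 12 to 61 reads per KO library lay under the 99 to 124 per WT library. Amot, an angiomotin scaffold that binds YAP, read 4.88, 3.53 and 3.91 FPKM in KO cells and 5.70, 5.47 and 7.56 FPKM in WT cells (log2 difference -0.50, adjusted p 0.562 in limma and 0.00168 in voom). Rhox5, an X-linked homeobox gene, and Spink1, a trypsin inhibitor, differed in pairs 2 and 3 and hardly in pair 1. Rhox5 read 2.76, 1.45 and 1.26 FPKM in KO cells and 2.40, 5.53 and 4.11 FPKM in WT cells, and Spink1 read 5.06, 5.33 and 5.90 FPKM in KO cells and 5.49, 11.9 and 10.3 FPKM in WT cells. Rbp4, the retinol carrier, had a log2 difference of -0.48 (adjusted p 0.685). The late visceral endoderm products Ttr (transthyretin) and Apoe (apolipoprotein E) differed little, by -0.12 and -0.16 (adjusted p 0.824 and 0.785), and their sign turned under TPM.

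**Figure D1:**
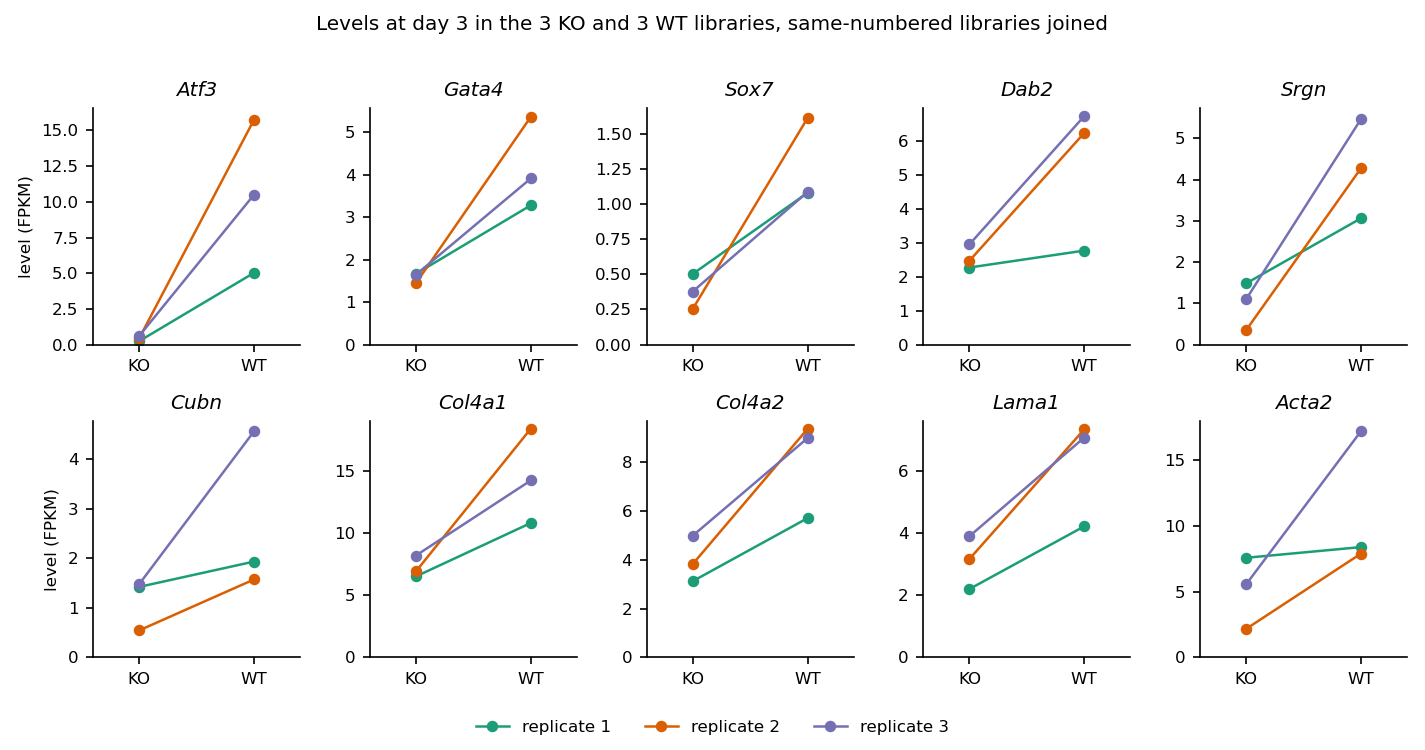
FPKM of 10 genes at day 3 on axes that start at 0, with the 3 KO libraries on the left and the 3 WT libraries on the right of each panel and lines that join libraries of the same replicate number. Every line runs upward from KO to WT; Atf3 sits between 0.248 and 0.611 FPKM in KO cells and between 5.03 and 15.8 FPKM in WT cells, and Dab2 alone of the 10 has KO and WT values that overlap.

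Of 42 extraembryonic endoderm genes measured, 24 passed the filter on low values and none passed the paired limma test. At an unadjusted p under 0.05, 15 were lower and 0 higher in KO cells, against 3.48% and 3.4% of all genes, and 18 were lower in all 3 pairs, against 16.9% of all genes. Of these 24 genes, 9 were called lower in voom, against 0.203% of all genes, and 12 among protein-coding genes, against 0.262%. Sox7, whose direction the filter fixed, is among the 9. The median difference was -0.428, against -0.016 over all genes, and was -0.241, -0.819 and -0.317 in pairs 1, 2 and 3. With the genes taken by their mean over the 6 libraries it was -0.476. The other 18 genes, among them Gata6, Sox17, Foxa2, Hnf4a, Apoa1 and Apob, did not pass the filter. Of the 24 that did, Sox7 passed it through the WT libraries alone. Without Sox7, 14 of 23 were lower at an unadjusted p under 0.05 and 17 in all pairs, with a median of -0.379. The calls in voom and among protein-coding genes were not recounted without it.

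Type IV collagen and the laminin alpha chain of the early basement membrane were also lower in KO cells in every pair. Col4a1 (ENSMUSG00000031502, chr8:11198423-11312826), the first chain of type IV collagen, read 6.51, 6.91 and 8.19 FPKM in KO cells, against 10.8, 18.4 and 14.2 FPKM in WT cells. Col4a2 (ENSMUSG00000031503, chr8:11312805-11449287), its partner chain, read 3.12, 3.82 and 4.99 FPKM in KO cells, against 5.71, 9.37 and 8.99 FPKM in WT cells. Neither gene overlapped between the groups. Their log2 differences were -0.89 with a standard error of 0.135 and -0.85 with a standard error of 0.114, both with an adjusted p of 0.116 in limma and with 2.07e-13 and 4.34e-12 in voom. The genes lie head to head and overlap at their ends, and the sources used here do not say whether counting used strand, so reads in the overlap cannot be assigned to one of them.

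Lama1 (ENSMUSG00000032796, chr17:67697259-67822647), the laminin alpha 1 chain, read 2.2, 3.16 and 3.90 FPKM in KO cells, against 4.22, 7.34 and 7.08 FPKM in WT cells, again without overlap. Its log2 difference was -0.81 with a standard error of 0.108 (adjusted p 0.116 in limma and 1.95e-12 in voom). The chains that pair with it differed less. Lamb1 had a log2 difference of -0.09 (adjusted p 0.848) and Lamc1 one of -0.22 (adjusted p 0.741), and under TPM both were above 0. Nid1, which links laminin to collagen, and Hspg2, the heparan sulphate proteoglycan perlecan, had log2 differences of -0.28 and -0.36 (adjusted p 0.724 each).

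Serpinh1, the collagen chaperone HSP47, read 22.4, 22.5 and 21.0 FPKM in KO cells, against 23.7, 33.8 and 31.2 FPKM in WT cells, a log2 difference of -0.40 (adjusted p 0.694). Sparc, a matrix protein that binds collagen, had a difference of -0.30 (adjusted p 0.725). Plod2, a collagen lysyl hydroxylase, was the one tested gene of this list with a positive difference, 0.05 (adjusted p 0.905).

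Of 33 basement membrane genes measured, 23 passed the filter and none passed the paired limma test. At an unadjusted p under 0.05, 9 were lower and 0 higher in KO cells, against 3.48% and 3.4% of all genes. In all 3 pairs 19 were lower, against 16.9% of all genes, and 4 were lower without overlap, against 1.51%. Voom called 3 of them lower, Col4a1, Col4a2 and Lama1, which belong to both lists, and so did the fit to protein-coding genes. The median difference was -0.223, or -0.366, -0.186 and -0.147 in pairs 1, 2 and 3. Under TPM, which lifted the median of all genes to 0.215, it was 0.025, which is -0.191 relative to all genes. Together the lists held 40 tested genes, of which 39 had a negative difference, as did 6708 of all 12353 genes. Sox7, whose direction the filter fixed, is among the 39.

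**Figure D2:**
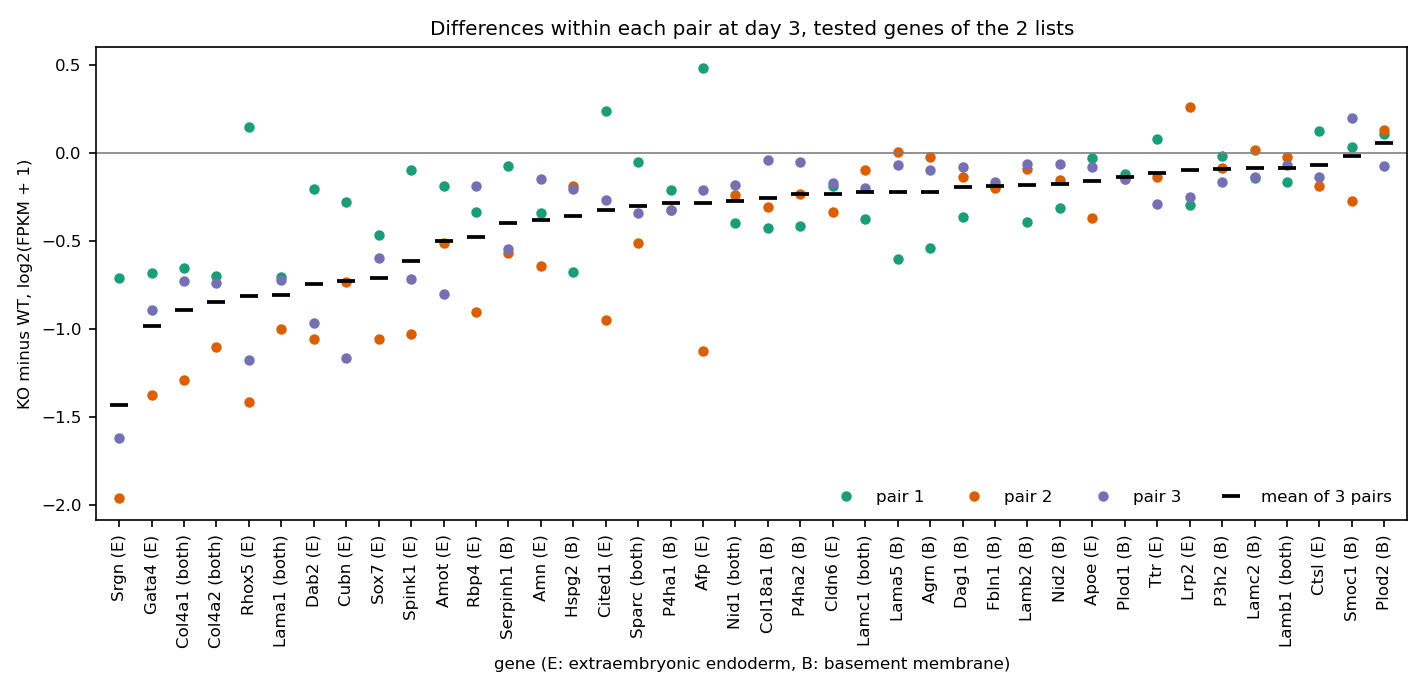
Difference in log2(FPKM + 1), KO minus WT, within each of the 3 pairs for the 40 tested genes of the extraembryonic endoderm and basement membrane lists, with 1 colour for each pair, a black bar at the mean of the pairs and a line at 0. Most points lie below 0; Srgn reaches -1.97 in pair 2, and Plod2 is the gene with a mean difference above 0.

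Other genes that voom called, none of which passed in paired limma over all genes, came from several groups, and those named here were chosen after their values were seen. Acta2, smooth muscle alpha actin, read 7.56, 2.16 and 5.55 FPKM in KO cells, against 8.37, 7.88 and 17.2 FPKM in WT cells, with most of the difference in pairs 2 and 3 (log2 difference -1.03, adjusted p 0.428 in limma and 7.28e-11 in voom). Pga5, a pepsinogen, read 0.430, 0.159 and 0.272 FPKM in KO cells and 1.05, 2.23 and 2.10 FPKM in WT cells (log2 difference -1.09), and passed the filter through the WT libraries alone, which fixed its direction. Igfbp5, a binding protein of insulin-like growth factors, had a log2 difference of -0.62 (adjusted p 0.574 in limma). Tfpi, the tissue factor pathway inhibitor, and Bmp1, a protease that trims procollagen, had differences of -0.42 and -0.36 (adjusted p 0.725 and 0.724 in limma).

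H19, an imprinted long non-coding RNA, read 73.9, 44.6 and 58.4 FPKM in KO cells, against 65.6, 84.9 and 92.7 FPKM in WT cells, and was higher in the KO library of pair 1. Hspb1, the small heat shock protein HSP27, read 51.9, 49.2 and 40.5 FPKM in KO cells, against 64.1, 92.1 and 51.7 FPKM in WT cells (log2 difference -0.51, adjusted p 0.562 in limma and 0.00974 in voom). On the higher side were Cltc (clathrin heavy chain), Ipo7 (a nuclear import receptor) and Abce1 (a ribosome recycling factor), with log2 differences of 0.46, 0.43 and 0.46 and adjusted p values of 0.685, 0.562 and 0.676 in limma. The predicted gene Gm8797 was called higher by voom with 5.67, 139 and 7.47 FPKM in KO cells and 4.96, 12.4 and 6.71 FPKM in WT cells, so that 1 KO library decided the call.

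Among genes with a mean of at least 5 FPKM in the higher group and an unadjusted p under 0.05, 26 were lower and 20 higher in KO cells in all 3 pairs without overlap. Over all tested genes, without these conditions on level and p, 1.51% were lower and 1.42% higher without overlap. The shares among genes of that level were not counted. Ranked by size, with predicted genes and pseudogenes passed over, the lowest after Atf3 were Acta2, Col4a1, Col4a2, Lama1 and Amot, followed by Mfap2 (a microfibril protein, -0.41), Serpinh1, Slc6a6 (the taurine transporter, -0.36), Pxmp2 (a peroxisomal membrane channel, -0.33), Cited2 (a CBP/p300-binding co-regulator, -0.33) and Dpysl2 (a cytoskeletal adaptor, -0.33). The highest differences were smaller. Rpl29, a protein of the large ribosomal subunit whose reads may be shared with processed copies of the gene, led with 0.40, from 23.5, 22.1 and 21.4 FPKM in KO cells and 17.0, 17.0 and 16.2 FPKM in WT cells (adjusted p 0.489). It was followed by Apip (an enzyme of methionine salvage, 0.37), Nxt2 (an mRNA export factor, 0.37), Sdhaf4 (an assembly factor of succinate dehydrogenase, 0.34), Cops3 (a COP9 signalosome subunit, 0.34), Fmr1nb (0.33), Spp1 (osteopontin, 0.33), Syde2 (0.32), Atp5k (a subunit of ATP synthase, 0.31), Aasdhppt (0.31), Tvp23b (0.29) and Timm21 (a subunit of the mitochondrial import machinery, 0.28). None of these genes other than Atf3 passed the adjusted test.

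Core pluripotency genes were high in both genotypes, with values that overlapped. Pou5f1, the core factor OCT4, read 325, 358 and 335 FPKM in KO cells, against 314, 421 and 327 FPKM in WT cells, and Sox2 read 18.7, 33.0 and 39.2 FPKM in KO cells, against 20.02, 38.3 and 43.5 FPKM in WT cells. Of 38 naive pluripotency genes, 35 were tested, with a median difference of -0.039, or 0.22 under TPM. Before adjustment (p under 0.05) 3 of them were higher and 4 lower, against 3.4% and 3.48% of all genes. Nanog was higher in each KO library of a pair, at 65.2, 26.0 and 19.97 FPKM in KO cells and 53.7, 18.2 and 18.0 FPKM in WT cells (log2 difference 0.31, adjusted p 0.724). Esrrb and Zfp42, other markers of the naive state, had log2 differences of -0.07 and -0.04 (adjusted p 0.88 and 0.935).

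Genes of formative and primed epiblast leaned lower in KO cells, within a narrow range. Of 29 genes 26 were tested, 12 were lower in all 3 pairs and 1 higher, against 16.9% and 13.6% of all genes, and the median was -0.115, or 0.133 under TPM, which is -0.082 relative to all genes. Sox4 had the lowest mean difference among those named, with 6.65, 12.1 and 14.6 FPKM in KO cells and 8.62, 15.0 and 19.9 FPKM in WT cells (log2 difference -0.35, adjusted p 0.575). Otx2, a homeobox factor of the primed state, read 1.53, 6.07 and 5.24 FPKM in KO cells, against 2.30, 6.81 and 6.56 FPKM in WT cells (log2 difference -0.27, adjusted p 0.725). Dnmt3b and Fgf5 had log2 differences of -0.11 and -0.04 (adjusted p 0.855 and 0.947).

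Genes of mesoderm and endothelium, the lineages in the series' question, were mostly still low at day 3. Of 25 primitive streak genes 10 were tested, of 29 mesoderm genes 9, and of 41 endothelial genes 17, with median differences of -0.035, -0.185 and -0.111. Sox7, whose direction the filter fixed, is among the 17 endothelial genes. Under TPM these medians were 0.129, -0.07 and 0.108. All 9 mesoderm genes had a negative mean difference, 5 were lower in all 3 pairs, against 16.9% of all genes, and 2 lower without overlap, against 1.51%. These 2 were Gata4, described above, and Bmp4, a signal that specifies mesoderm, which read 1.47, 1.2 and 1.69 FPKM in KO cells, against 1.73, 1.86 and 2.24 FPKM in WT cells (log2 difference -0.26, adjusted p 0.725). The streak factor T (brachyury) read 1.62, 0.777 and 1.17 FPKM in KO cells, against 1.27, 1.06 and 1.38 FPKM in WT cells, and Eomes read 2.01, 1.24 and 0.792 FPKM in KO cells, against 1.43, 1.39 and 1.07 FPKM in WT cells. Both groups overlapped for either gene. Kdr, the VEGF receptor of vessel progenitors, was not tested and read 0.0356 to 0.201 FPKM in KO cells and 0.147 to 0.268 FPKM in WT cells. Egfl7, a secreted protein of endothelium, had a log2 difference of -0.20 (adjusted p 0.747) and Ets2 one of -0.22 (adjusted p 0.741).

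Fibroblast and trophoblast markers were at low levels in both genotypes. The summed level of 6 fibroblast markers (Col1a1, Col1a2, Col3a1, Postn, Dcn and Thy1) was 8.64 to 10.3 FPKM in KO cells and 10.0 to 12.5 FPKM in WT cells, with Postn and Dcn under 1 FPKM in all 6 libraries. Without Thy1, which stem cells and neurons can also express, the sums were 5.05, 2.08 and 3.48 FPKM in KO cells, against 4.03, 5.09 and 6.11 FPKM in WT cells, so that pairs 2 and 3 were lower in KO cells and pair 1 was not. Col1a1 read 2.74, 1.45 and 1.48 FPKM in KO cells, against 2.51, 2.92 and 3.16 FPKM in WT cells, and was called lower in voom (adjusted p 0.0231) and not in limma (adjusted p 0.724). Of 40 fibroblast and matrix genes 22 were tested, 7 of them lower and 0 higher at an unadjusted p under 0.05, against 3.48% and 3.4% of all genes, and their median was -0.176, or 0.061 under TPM. The trophoblast factor Elf5 was at 0 in all 6 libraries, and 4 trophoblast markers summed to 2.81 to 5.75 FPKM in KO cells and 4.53 to 6.39 FPKM in WT cells. The part of such cells in the differences above was not tested.

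ATF3 itself belongs to the AP-1 and stress response genes. Of 31 AP-1 and immediate early genes 26 were tested, none higher and 11 lower in all 3 pairs, against 13.6% and 16.9% of all genes, with a median of -0.090, or 0.18 under TPM, which is -0.035 relative to all genes. Jdp2, which encodes a dimer partner of the same family, had a log2 difference of -0.28 (adjusted p 0.725), with 1.84, 1.58 and 1.46 FPKM in KO cells and 2.84, 2.07 and 1.76 FPKM in WT cells. Of 39 genes of the integrated stress response, the pathway that induces ATF3 through ATF4, 36 were tested, with a median of -0.071, or 0.19 under TPM. Ddit3, the factor CHOP, had a log2 difference of 0.21 and Sesn2, a stress-induced sestrin, one of -0.26 (adjusted p 0.739 and 0.725). Of 45 Nodal, BMP and TGF-beta genes 29 were tested, with a median of -0.105, or 0.14 under TPM. Among the 29, Pmepa1 passed the filter through the WT libraries alone, which fixed its direction. Nodal read 11.9, 20.6 and 20.2 FPKM in KO cells, against 14.5, 26.4 and 24.3 FPKM in WT cells (log2 difference -0.29, adjusted p 0.712).

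Growth and metabolic classes differed between pairs more than between genotypes. Of 80 ribosomal protein genes 79 were tested, with a median of 0.081 overall but 0.326, -0.164 and 0.050 in pairs 1, 2 and 3. All 76 oxidative phosphorylation genes were tested, with a median of 0.055 overall and 0.252, -0.184 and 0.055 in the pairs. For both lists the sign in pair 2 was opposite to that in pair 1. Of 49 hypoxia and glycolysis genes 44 were tested, with a median of -0.106, or 0.16 under TPM. Epas1, the hypoxia-inducible factor HIF-2 alpha, read 0.916, 1.55 and 1.28 FPKM in KO cells, against 2.40, 2.05 and 1.62 FPKM in WT cells (adjusted p 0.724 in limma and 0.00519 in voom). Over the 37 lists with at least 5 tested genes, medians ran from -0.428 for extraembryonic endoderm to 0.138 for haematopoietic genes.

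**Figure D3:**
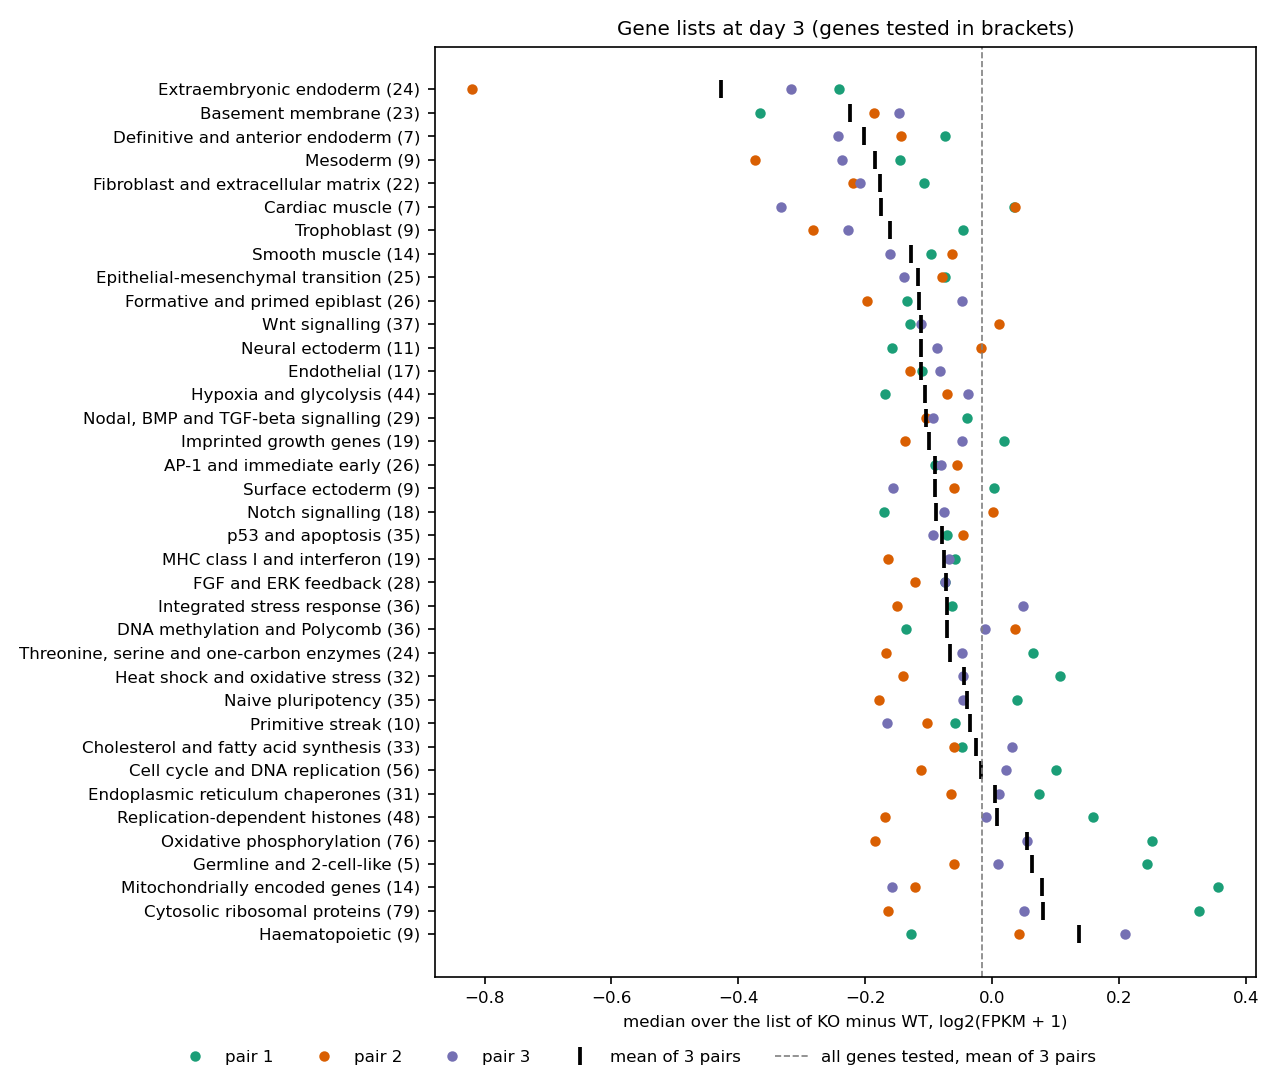
Median difference in log2(FPKM + 1), KO minus WT, for the 37 gene lists with at least 5 tested genes, for each pair (points) and for the mean of the pairs (black bars), with a dashed line at the median of all tested genes. Extraembryonic endoderm has the lowest bar, -0.428, and is below 0 in each pair, while ribosomal protein and oxidative phosphorylation genes are above 0 in pair 1 and below 0 in pair 2.

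The day 3 difference was set beside the other days, which use other libraries. Atf3 itself was 0.172 ± 0.0417 FPKM in KO cells and 1.86 ± 1.04 FPKM in WT cells at day 0, before differentiation (SD, n = 3 each). At day 6 Gata4 averaged 15.0 ± 5.8 FPKM in KO cells and 13.3 ± 3.07 FPKM in WT cells, and Col4a1 averaged 51.8 ± 4.95 FPKM in KO cells and 46.9 ± 3.78 FPKM in WT cells (SD, n = 3 each). For both genes the values of the genotypes overlapped at day 6, and Gata4 had exceeded its day 3 level in either genotype. Lama1 was 4.92 ± 0.987 FPKM in KO cells and 10.3 ± 1.89 FPKM in WT cells at day 6, and Srgn was 0.697 ± 0.604 FPKM in KO cells and 2.78 ± 1.88 FPKM in WT cells, so both kept a lower mean in KO cells.

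For some of the genes named above a difference was present before differentiation. Col4a1 read 4.51 to 5.09 FPKM in KO cells and 5.77 to 6.22 FPKM in WT cells at day 0, and Col4a2 read 1.72 to 2.35 FPKM in KO cells and 2.76 to 3.37 FPKM in WT cells, each without overlap. The share of all genes without overlap at day 0 was not counted. Gata4 overlapped at day 0, at 0.718 to 1.02 FPKM in KO cells and 0.948 to 1.49 FPKM in WT cells. Acta2 already had a lower mean in KO cells at day 0, 5.33 ± 3.64 FPKM, against 10.96 ± 1.26 FPKM in WT cells. At day 6 its mean was higher in KO cells, 148.9 ± 61.3 FPKM, against 50.6 ± 13.7 FPKM in WT cells (SD, n = 3 each). A change in the Acta2 difference between days 3 and 6 was not established (adjusted p 0.416, limma without pairs). Of the 40 genes of both lists, 24 had a negative difference at day 0, 16 at day 6 and 25 at day 9, against 39 at day 3. Of all 12353 genes, 6363 were negative at day 0, 5750 at day 6 and 6041 at day 9, against 6708 at day 3. The median of the extraembryonic endoderm list was -0.061 at day 0, 0.144 at day 6 and -0.741 at day 9. That of the basement membrane list was 0.022, 0.006 and 0.040, and that of the fibroblast and matrix list -0.122, 0.316 and 0.156. Over all tested genes the medians at days 0, 6 and 9 were -0.004, 0.027 and 0.005.

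**Figure D4:**
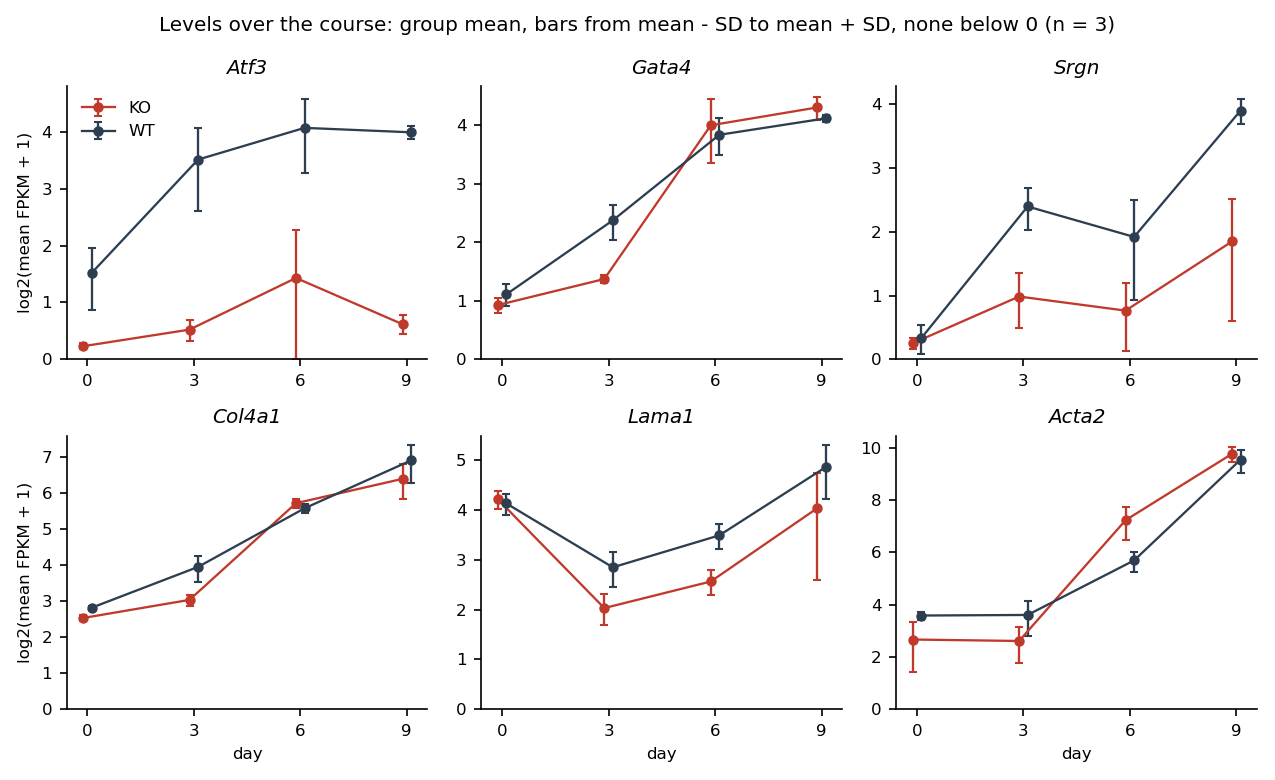
Mean level of Atf3, Gata4, Srgn, Col4a1, Lama1 and Acta2 as log2(mean FPKM + 1) at days 0, 3, 6 and 9 for KO and WT cells, with bars from mean minus SD to mean plus SD over 3 libraries. Gata4 and Col4a1 have a lower mean in KO cells at day 3 and values that overlap between the genotypes at day 6, though a change between these days was not established. Lama1 is 4.92 FPKM in KO cells and 10.3 FPKM in WT cells at day 6.

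Whether the difference itself changed between days was tested in all 24 libraries, without pairs. Between day 3 and day 0 no gene passed (limma, 0%), with 51 genes at an unadjusted p under 0.05. Between day 3 and day 6 there were 5 genes (0.0405%), none of them from either list. The Gata4 difference at day 3 minus that at day 6 was -1.09 with an adjusted p of 0.941, so a change in it between these days was not established. In a fit of days 3, 6 and 9 with pairs within each day, an alternative added after seeing the data, the Gata4 value was -1.09 with an unadjusted p of 0.0244 and an adjusted p of 1.0 (limma), and no gene passed (294 at an unadjusted p under 0.05). Trh, a neuropeptide precursor, had the largest size of the 5 and an adjusted p of 0.216 in the fit with pairs. Trh read 381, 424 and 291 FPKM in KO cells and 297, 363 and 362 FPKM in WT cells at day 3, and averaged 33.2 ± 20.6 FPKM in KO cells and 353 ± 162 FPKM in WT cells at day 6 (SD, n = 3 each). At day 6 the KO libraries were uneven in Atf3, at 0.343 to 4.17 FPKM in KO cells and 10.9 to 23.99 FPKM in WT cells.

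The position of the day 3 libraries on the course was read from genes that changed in WT cells between days 0 and 6 (limma, adjusted p under 0.05 and a log2 difference over 1), 1353 higher at day 6 (11.9%) and 1541 lower (13.6%) of 11369 tested. The mean log2 level of the 1353 higher genes was 2.83, 2.87 and 2.87 in KO cells, against 2.89, 2.94 and 2.93 in WT cells, lower in each pair and without overlap. It was 2.15 to 2.27 in WT cells at day 0 and 3.75 to 4.09 at day 6. The KO libraries at day 6 were uneven, at 4.08, 3.90 and 3.43 in replicates 1, 2 and 3. Of the 1353 genes, 341 (25.2%) were lower in KO cells in all 3 pairs at day 3 and 93 (6.87%) higher, against 16.9% and 13.6% of all genes. The 1541 lower genes averaged 3.40, 3.47 and 3.36 in KO cells, against 3.39, 3.53 and 3.35 in WT cells, with overlap, and 17.0% of them were lower in KO cells in all pairs.

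Promoters of the genes named by rank, from 250 bases before to 50 after the annotated start, were searched on both strands for 2 motif classes. The AP-1 site TGACTCA or the cyclic AMP response element TGACGTCA was found in 0 of the 7 genes lower in KO cells and 0 of the 9 genes higher in KO cells that had a promoter in the table. It was found in 2 of 18 extraembryonic endoderm genes, in Cldn6 (TGACGTCA) and Rbp4 (TGACTCA), and in 641 of 8366 tested genes (7.66%). AGATAA, 1 form of the GATA motif, was found in 0 of the 7 lower genes and 1 of the 9 higher genes, Nxt2 (11.1%). It was found in 1 of the 18 extraembryonic endoderm genes, Dab2 (5.56%), and in 566 of the 8366 (6.77%). Other forms of the GATA motif were not searched for. Gata4, Lama1, Sox7 and Srgn are not in the promoter table used.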

How the data were processed

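The deposited table gives FPKM per gene; per the submitters' processing notes the tools named are HISAT2 2.2.1 and featureCounts 2.0.1, Trimmomatic 0.39 and FastQC 0.11.9 for the reads, and R 4.1.0 with DESeq2 1.30.1, on mm10, from poly(A)+ NEBNext Ultra II libraries per the labels' protocols. The sources used here do not say whether counting used strand. FPKM times transcript length fell on whole multiples of 1 read, within 0.05 reads, for 96.1% to 96.6% of values of up to 50 reads in the day 3 libraries, so the reads behind each value could be recovered for 53360 of 53465 genes. A total is then 12970024 to 17293235 reads per day 3 library. The scaling of the FPKM values between libraries did not follow these totals.

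Genes with at least 1 FPKM in at least 3 of the 6 libraries were tested on log2(FPKM + 1), which understates the change of low genes. The test was limma 3.58.1 in R 4.3.3 with a trended prior, the replicate number as a block and Benjamini-Hochberg adjustment over all tested genes at 0.05. The numbers pair the libraries because the deviations of same-numbered libraries correlated at 0.677 to 0.702. Interactions between days used all 24 libraries without a block. The name of 1 KO day 0 column matches no single sample's labels, so a paired fit between days was made over days 3, 6 and 9. No 2 libraries of the same genotype at day 3 agreed within counting noise. The comparison and its gene lists (39 lists, 1361 of 1374 names found) were chosen with earlier results of these data known, so lists are described by counts and medians, with no test. Named were Atf3, up to 12 genes each way by size, up to 4 members of each list described and genes of the largest interactions; further list members and voom calls were chosen after their values were seen, and some genes that the rule names are not reported here. The test was checked on simulated data. Alternatives were the block, filter, pseudocount, scaling, prior, gene set and voom, and each library or pair left out. Figures used Python 3.11.15 and matplotlib 3.10.9.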

Additional observations from a re-analysis of the deposited data

Results flagged for a closer look

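For 5 genes the KO minus WT difference on the log2 scale was not the same at day 3 as at day 6 (limma interaction over 12353 genes, 24 libraries). The day 3 difference minus the day 6 difference was 3.52 for Trh (adjusted p 0.0184), 2.36 for Sfrp1 (adjusted p 0.0215), 1.98 for Dll3 (adjusted p 0.0215) and 1.51 for Penk (adjusted p 0.00865). For these genes the values at day 3 overlapped between the genotypes and the KO values at day 6 were under the WT values, for Sfrp1, an inhibitor of Wnt signalling, at 1.25 to 3.78 FPKM in KO cells and 13.1 to 19.8 FPKM in WT cells. Dll3, a Notch ligand, read 0.475 to 0.842 FPKM in KO cells and 3.78 to 8.05 FPKM in WT cells at day 6, and Penk, an opioid peptide precursor, read 0.232 to 0.452 FPKM in KO cells and 2.90 to 4.35 FPKM in WT cells. The value was -1.41 for Dusp2, a nuclear phosphatase of MAP kinases (adjusted p 0.0277), which read 5.48 to 6.14 FPKM in KO cells and 1.4 to 1.83 FPKM in WT cells at day 6. At day 3 its values overlapped as well. With any 1 day 3 library left out, 0 to 3 genes passed. With pairs within each of days 3, 6 and 9, an alternative added after seeing the data, none of the 5 passed: the adjusted p was 0.216 for Trh, Sfrp1, Dll3 and Penk and 0.578 for Dusp2.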

How the results depend on the processing

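The paired fit had 2 residual degrees of freedom. No gene passed with no replicate block (0), with days 3, 6 and 9 in 1 fit with a replicate block within each day (0), with no filter (0) and in voom with no replicate block (0). With a stricter filter (mean of at least 5 FPKM) 25 genes passed, 12 higher and 13 lower in KO cells, under TPM 169, in voom 30, among protein-coding genes 40 and in voom on protein-coding genes 32. Leaving out libraries or pairs gave 0 to 60. The Atf3 difference was -2.88 but no longer called with no replicate block, with days 3, 6 and 9 together and with no filter, and -4.49 and not called in voom with no replicate block; without a library or pair it was -4.78 to -2.55. Day 3 against day 6 gave 2 genes with a pseudocount of 0.1, 1 with the stricter filter, 1 under TPM, 0 with a replicate block within each of days 3, 6 and 9 and 0 to 3 without 1 library, while day 3 against day 0 gave 0 throughout.

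The sign turned under TPM for Lrp2 (0.15), Ttr (0.10), Apoe (0.12), Lamb1 (0.18), Lamc1 (0.04), Pou5f1 (0.23), Esrrb (0.19), Zfp42 (0.22), Fgf5 (0.21), Dnmt3b (0.17), Ier3 (0.01), Sesn2 (0.01), Sfrp1 (0.06), Dll3 (0.06), Dusp2 (0.11), Ets2 (0.00), Egfl7 (0.04), T (0.11) and Sox2 (0.13), and for the medians of basement membrane (0.025), fibroblast and matrix (0.061), formative (0.133), Nodal and BMP (0.14), AP-1 (0.18), hypoxia (0.16), naive (0.22), integrated stress response (0.19), primitive streak (0.129) and endothelial (0.108) genes. TPM moved the median of all genes from -0.016 to 0.215. Relative to that median, the genes listed stayed below 0 under TPM except Pou5f1 (0.02) and Zfp42 (0.0). The list medians also stayed below 0 relative to it, from -0.191 for basement membrane to -0.025 for the integrated stress response, except that of naive genes (0.005). With equal sums without rRNA-type genes, these medians stayed below 0, from -0.186 for basement membrane to -0.001 for naive genes. The sign also turned for Fgf5 with equal sums without rRNA-type genes (0.01) and in voom with no replicate block (0.03), and for Eomes with a pseudocount of 0.1 (-0.03) and in voom with no replicate block (-0.02). Without a library or pair, signs turned for Lrp2 (-0.41 to 0.16), Ttr (-0.28 to 0.02), Plod2 (-0.36 to 0.45), Nanog (-0.19 to 0.81), Pou5f1 (-0.13 to 0.08), Esrrb (-0.16 to 0.04), Zfp42 (-0.14 to 0.02), Otx2 (-0.67 to 0.20), Fgf5 (-0.68 to 0.60), Dnmt3b (-0.39 to 0.22), Ier3 (-1.75 to 1.31), Sesn2 (-0.55 to 0.13), Trh (-0.05 to 0.29), Dll3 (-0.37 to 0.10), Dusp2 (-0.26 to 0.14), Gm8797 (-0.18 to 2.76), Cltc (-0.12 to 0.84), T (-0.34 to 0.11), Eomes (-0.28 to 0.22) and Sox2 (-0.48 to 0.15), and for the medians of formative (-0.331 to 0.051), Nodal and BMP (-0.152 to 0.014), AP-1 (-0.272 to 0.109), hypoxia (-0.344 to 0.155), naive (-0.183 to 0.054), integrated stress response (-0.120 to 0.081), ribosomal protein (-0.046 to 0.184) and oxidative phosphorylation (-0.066 to 0.170) genes. The cause was not tested. The extraembryonic endoderm median stayed below 0 in all of these settings, at -0.895 to -0.290 without a library or pair.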
